A study of Mus musculus with 20 samples.

Results

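The brain was compared with duodenum, liver, spleen and bone marrow through the RNA that a control immunoprecipitation recovered from each mouse tissue. The members are 2 brain control arrays, set against 8 control arrays of the other 4 tissues, so that the comparison took 10 of the 20 arrays of the series. They were chosen by their titles, which name the tissue and the control reaction, and no measured value entered the choice. In the series, total RNA was mixed with recombinant IRP1 (iron regulatory protein 1, which binds hairpins called iron-responsive elements in messenger RNAs of iron metabolism) and precipitated with a rabbit antibody to IRP1. The control reaction held the antibody and 50 µg of total RNA but no recombinant IRP1, and about 120 ng of the recovered RNA was amplified and read on an Affymetrix array of the mouse genome.

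The brain RNA came from C57BL6/J mice of 8 to 10 weeks on an iron-normal diet, with 6 mice per pool. The duodenum, liver and spleen RNA came from C57BL6/J mice that had eaten an iron-poor diet, with under 10 mg of iron per kg, for 21 days from weaning. The labels give 4 mice for the duodenum pool, and the series text gives 4 to 6 for every tissue. The bone marrow RNA came from C57BL6/J mice of 8 to 10 weeks on the iron-normal diet, with 6 mice per pool. Bone marrow is thus the only other tissue matched to brain for diet and age, and for the rest the effect of tissue cannot be told apart from that of diet and age. The labels call every sample a mix of both sexes and do not say whether the 2 arrays of a tissue came from separate pools, so that p-values measure the spread between these arrays, which may be technical.

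Brain tissue is built from neurons and from glia. Neurons release transmitters from synaptic vesicles, carry action potentials through voltage-gated channels and transport cargo along axons held open by neurofilaments and microtubules. Astrocytes take up glutamate and water, oligodendrocytes wrap axons in myelin, and the endothelium of brain vessels forms the blood-brain barrier. The adult brain holds few dividing cells and shows little of the antigen-presenting molecules of the immune system.

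All values are log2 signals as the authors deposited them, so a difference of 1 is a 2-fold change. The 10 control arrays had medians of 5.5 to 5.605 and ranged from about 2.69 to 15.3, and values at the low end carry no order because the deposited table gives no detection call. Over 45037 probe sets, the 2 brain arrays correlated with those of other tissues at 0.755 to 0.797 in 16 pairs, and the other tissues with each other at 0.806 to 0.951 in 24 pairs. Arrays of the same tissue correlated at 0.983 to 0.992. The gap between 3′ and 5′ probe sets of actin, a sign of RNA length after amplification, was 3.19 and 2.39 on the brain arrays, against 2.03 to 3.53 on the others. The same gap for Gapdh was 3.34 and 2.81 in brain, against 4.64 and 4.49 in bone marrow and 2.60 to 3.51 in the other 3 tissues, so that bone marrow stood apart from brain in this measure. The correlation coefficients describe arrays that share probes and normalization and were not tested.

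The tissue labels were checked against cell markers. The 11 neuronal markers, among them Snap25, Nefl and Rbfox3, averaged 10.33 and 10.49 on the brain arrays, against 5.40 to 5.95 on the 8 others. Not every marker set brain apart at its brightest probe set. Camk2a read 7.39 and 8.00 in brain, against 7.35 to 8.19 elsewhere, and Gad1 read 6.92 and 8.51, against 5.84 to 6.98. Astrocyte markers averaged 10.04 and 10.11 in brain, against 6.35 to 8.03 elsewhere, and 27 oligodendrocyte markers averaged 9.15 and 8.90, against 6.22 to 6.82. Markers of hepatocytes were highest in liver, of enterocytes and pancreatic acinar cells in duodenum, of B and T cells in spleen, and of neutrophils and red cell precursors in bone marrow. The 16 B and T cell markers averaged 5.40 and 5.53 in brain, below every other array.

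**Figure D1:**
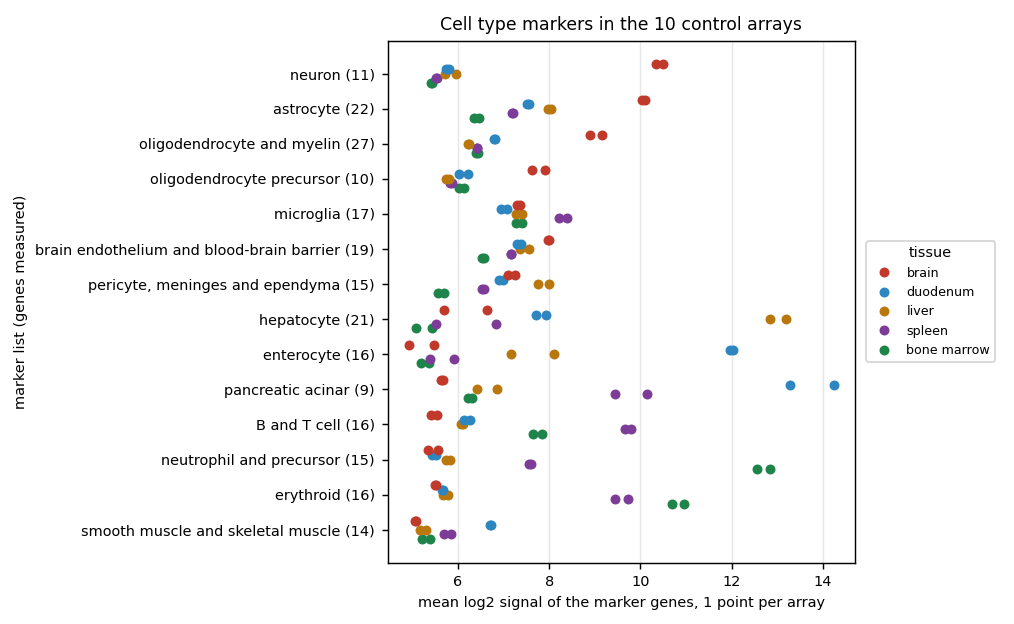
Mean log2 signal (horizontal axis) of the genes of each cell type marker list (vertical axis, number of genes in brackets), 1 point per control array, coloured by tissue. The brain points stand to the right of all others for the neuronal, astrocyte and both oligodendrocyte lists, and left of spleen for microglia, where brain read 7.36 and 7.30 against 8.21 and 8.39 in spleen.

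The 2 brain arrays stood apart from each other in a few transcripts, named here after their values were seen. Brain array 1 carried the pituitary hormones prolactin (Prl, 10.67) and growth hormone (Gh, 10.54), whereas brain array 2 read 4.92 and 4.20 for the same probe sets and lay among the other tissues. Pomc, the precursor of pituitary corticotropin, had 9.39 and 4.59 on these arrays in one of its probe sets. Fabp1, a fatty acid binding protein of liver and gut, read 8.80 and 4.18 in brain, and the liver genes Alb and Cyp3a11 were also higher on brain array 1 (10.95 and 7.54 for Alb). These gaps were not particular to brain. Alb read 8.34 and 11.74 in spleen and 9.1 and 6.76 in duodenum, and Cyp3a11 read 6.16 and 8.38 in spleen. For Alb the arrays of liver (14.7 and 14.3) and of bone marrow (7.08 and 5.96) lay closer together.

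Eif2s3y, a gene of the Y chromosome, read 3.17 on brain array 1 and 7.52 on brain array 2. It had 3.09 to 3.33 in duodenum, liver and spleen, against which bone marrow stood out with 8.69 and 9.30. Eif2s3y signal well above the low end was thus seen on 1 brain array and both bone marrow arrays, and not on the other 7. The labels call every sample a mix of sexes. The IRP1 arrays showed the same contrast, with 9.99 and 4.70 for Prl and 3.12 and 7.32 for Eif2s3y in brain. Other sex-linked genes shared the Eif2s3y contrast only in part. On the control arrays Kdm5d, also a Y gene, read 3.28 and 4.42 in brain, 4.6 and 5.36 in bone marrow, and 3.29 to 3.54 elsewhere. The Y gene Uty showed no such contrast, with 4.15 and 4.5 in brain, 4.51 and 4.47 in bone marrow, and 3.94 to 4.68 elsewhere. Xist, an RNA of the inactive X chromosome, read 10.7 to 12.75 over all control arrays. Between the 2 brain arrays, 719 probe sets were over 2-fold higher on array 1 and 357 on array 2. The same counts were 140 and 115 in duodenum, 223 and 184 in liver, 59 and 323 in spleen, and 276 and 407 in bone marrow.

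**Figure D2:**
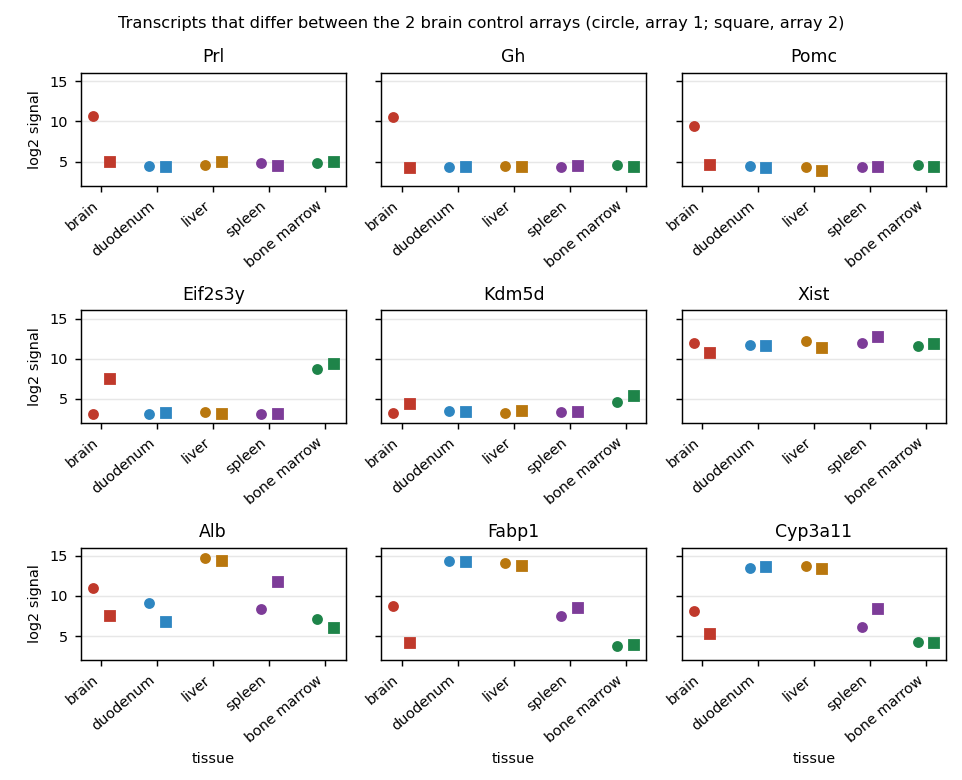
Log2 signal (vertical axis) of 9 transcripts by tissue (horizontal axis), with a circle for array 1 and a square for array 2. Prl, Gh and Pomc were high on brain array 1 only, and Eif2s3y on brain array 2 and both bone marrow arrays.

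Brain differed from the other tissues in a large share of the transcripts read. In a limma model with Benjamini-Hochberg adjustment over 45037 probe sets, 8563 (19.0%) were higher in brain than in the equally weighted mean of the 4 tissues and 10589 (23.5%) were lower, at an adjusted p under 0.05, which is the meaning of a call throughout. Brain was higher than each of the 4 tissues in 4539 probe sets (10.1%) and lower than each in 1922 (4.27%). Calls above each tissue reached larger sizes, with 1048 probe sets at least 8-fold over every tissue against 69 at least 8-fold below. Against the mean of the 4 tissues, 1441 called probe sets were at least 8-fold higher and 551 at least 8-fold lower. For comparison, the same fit called 2338 probe sets higher in duodenum than in each other tissue, 1875 in liver, 1481 in spleen and 1189 in bone marrow. Lower than in each other tissue were 449 in duodenum, 1265 in liver, 77 in spleen and 804 in bone marrow. More calls above each than below each were thus seen for every tissue and not for brain alone. In bulk tissue, fewer cells of a type and less RNA per cell cannot be told apart.

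Against bone marrow, matched for diet and age, 8725 probe sets (19.4%) were higher in brain and 8527 (18.9%) lower. The part of the wider Gapdh gap of bone marrow in these counts was not tested. Without brain array 1 the counts against the mean of 4 tissues were 7346 higher and 8072 lower, and without brain array 2 they were 7490 and 7972. With each tissue reduced to its mean, so that brain was a single value, 2129 probe sets were called higher and 91 lower, and Igha and Plac8, described below, were among those not called (adjusted p = 0.254 and 0.191).

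The gene with the largest excess in brain was Zic1, a zinc finger transcription factor of the dorsal neural tube and of cerebellar granule cells. It had 12.63 and 12.05 on the brain arrays, against 3.15 to 3.41 on the 8 others. The brain arrays lay far above all others, by 9.06 ± 0.16 (SE), a 534-fold difference (limma, adjusted p = 6.47e-11). Next came Mobp, a protein of compact myelin, with 12.91 and 12.84 in brain, against 3.74 to 4.31 elsewhere. The gap for Mobp was 8.87 ± 0.17, and the groups did not overlap.

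Synaptic genes stood beside them. Snap25, which drives the fusion of synaptic vesicles with the membrane, had 12.11 and 12.06 in brain, against 4.85 and 4.97 in duodenum, 3.27 and 3.48 in liver, 3.51 and 3.41 in spleen, and 3.32 and 3.38 in bone marrow. The groups did not overlap, and brain exceeded the mean of 4 tissues by 8.31 ± 0.13. Nefl, the light chain of neurofilaments, had 12.01 and 12.24 in brain, against 3.72 to 3.96 elsewhere. Gria2, a subunit of AMPA-type glutamate receptors, read 10.75 and 10.9 in brain, against 2.90 to 3.28 elsewhere, and Gabra6, the GABA receptor subunit of cerebellar granule cells, read 11.55 and 11.47, against 3.57 to 4.24.

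The other genes among the 25 with the largest excess were Mbp, Gpm6a, Vsnl1, Mapk10, Calb1, Fam107a, Ndrg4, Trim9, Dner, Snhg11, Kalrn, Cntn1, Gad1, Rnf112, Hpcal4, Kif5c, Gdap1, Nap1l2 and Cadps, with differences of 7.29 to 8.85. They include a major myelin protein (Mbp), calcium sensors (Vsnl1, Hpcal4), a calcium buffer of Purkinje cells (Calb1), the enzyme that makes GABA (Gad1), an axonal kinesin motor (Kif5c) and a factor of dense-core vesicle release (Cadps).

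**Figure D3:**
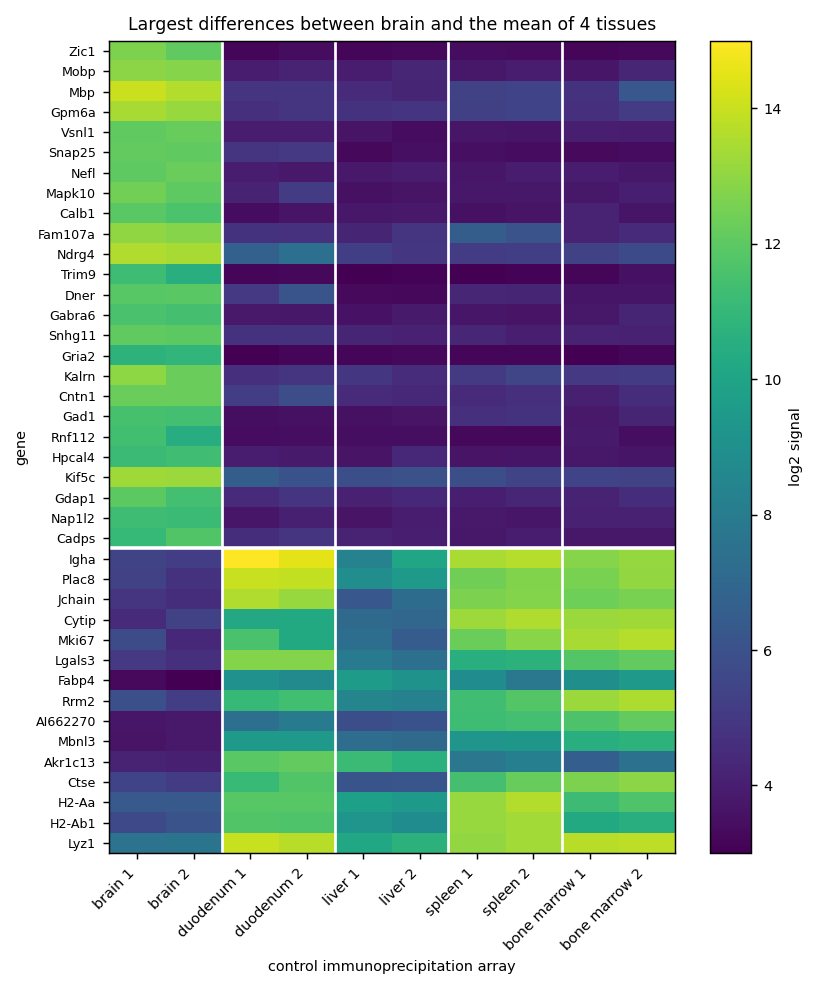
Log2 signal (colour) of the 25 genes with the largest excess in brain (above the white line) and the 15 with the largest deficit against the mean of 4 tissues among those called lower than each (below it), by control array. The 2 brain columns are bright above the line and dark below it, as with Zic1 at 12.63 and 12.05 and Igha at 5.48 and 5.20.

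Genes were also read as lists of known roles, each gene by its brightest probe set. Of all 18193 genes, 22.1% were higher in brain than the mean of 4 tissues, 29.0% lower, 11.4% higher than each tissue and 5.92% lower than each, with a median difference of -0.15. Against bone marrow alone, 4242 of these 18193 genes were higher in brain and 4040 lower, with a median of -0.095. The lists below are read against those shares and counts. Probe sets of a gene can disagree, as for Mbp, where the brightest differed by -0.08 and another by 8.85, and the cause was not tested.

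Presynaptic genes were high in brain. Of 29 genes of synaptic vesicles and release, 27 were higher than the mean of 4 tissues, 26 were higher than each tissue and none was lower, with a median of 3.73. Besides Snap25 these were led by Pclo, a scaffold of the active zone (11.76 and 10.93 in brain, difference 6.70), Cplx1, a clamp of vesicle fusion (6.45), Rab3c, a vesicle GTPase (6.39), Unc13c, a priming factor (6.27) and Syp, a vesicle membrane protein (5.90). Bsn, another active zone scaffold, differed by -0.25 and was not called.

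Receptors and channels followed. Of 21 glutamate receptor genes 16 were higher, with a median of 2.39, led by Gria1 (5.87) and the metabotropic receptors Grm7 (5.71), Grm3 (5.32) and Grm5 (5.29). Grin2a, a subunit of the NMDA receptor, read 3.60 and 3.88 in brain, within the range of the other tissues at these probes. Of 16 genes of GABA synthesis, transport and receptors 15 were higher, with a median of 3.23, among them Gabrb1 (6.75) and Gabra4 (5.15). Of 33 voltage-gated channel genes 29 were higher and none lower, with a median of 3.94. They ran from the calcium channel subunit Cacnb4 (6.82) and the sodium channel Scn1a (5.97) to Cacna1b. At its brightest probe set Cacna1b differed by -0.23 and was not called. By the probe set with the highest mean in any single tissue, chosen after seeing the data, all 33 genes were called higher, Cacna1b included.

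Structure and adhesion showed the same direction. In the list of cytoskeleton and axonal transport 33 of 37 genes were higher, with a median of 4.06, including Nefm (7.12), the dendritic microtubule protein Map2 (6.92) and Stmn3 (6.79). Dcx, a marker of young migrating neurons, had 5.06 and 5.30 in brain and differed by -0.09, without a call. Of 33 adhesion genes 26 were higher, all 26 of them than each tissue, among them Adgrb3 (6.33), Negr1 (5.94) and Pcdh8 (5.74). Of 20 postsynaptic genes 17 were higher, with a median of 2.27, led by Ddn (6.57) and Camk4 (5.89).

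Neuronal control genes were more mixed. Of 23 neuronal RNA-binding proteins 15 were higher, with a median of 1.56, led by the splicing factors Rbfox1 (7.17), Celf4 (6.87) and Rbfox3 (6.13). Of 27 transcription factors 20 were higher and 1 lower, with Neurod1 at 5.54 after Zic1. The lower one was Egr3, a factor induced by activity, at -0.42, and its call was lost without either brain array (limma, adjusted p = 0.247 without array 1 and 0.0647 without array 2) and on the IRP1 arrays (-0.15, adjusted p = 0.531).

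Transmitter identity depended on the transmitter. Slc17a6, the vesicular glutamate transporter of subcortical neurons, had 8.58 and 8.35 in brain, against 3.7 to 4.0 as tissue means elsewhere, and rose by 4.65. The dopamine transporter Slc6a3 (1.42) and the cortical glutamate transporter Slc17a7 (1.27) were called higher with small differences. Slc6a4, the serotonin transporter, was lower in brain than the mean of 4 tissues, at 5.12 and 5.66 in brain, with a difference of -1.36. In all, 7 of these 14 genes were higher and 1 was lower.

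Neuropeptide genes split brain from gut less cleanly than from the other tissues. Of 26 genes 20 were higher than the mean, but 15 higher than each tissue. Chgb, a core protein of secretory granules, had 12.82 and 12.10 in brain, against 12.31 and 11.27 in duodenum, 4.56 and 5.69 in liver, 4.36 and 4.56 in spleen, and 4.51 and 4.19 in bone marrow. Brain and duodenum overlapped, and both stood far above the other 3 tissues. Crh, the releasing hormone of the stress axis, had 9.46 and 8.78 in brain and was near 3.3 in every other tissue (difference 5.84), and Penk, the enkephalin precursor, differed by 4.93.

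Markers of brain regions were unevenly represented, in part depending on the probe set taken for each gene. Of 17 cerebellar genes 16 were higher, with a median of 4.10, among them Calb1 (8.05), Cbln1, a synapse organizer of granule cells (5.42), and Ppp1r17 of Purkinje cells (4.69). The striatal list had 12 of 15 higher with a median of 1.76, including Arpp21 (5.58), Penk (4.93) and Rasd2 (3.96). The list of cortex and hippocampus had 12 of 17 higher with a median of 1.20, led by Ccn3 (5.05), Lmo3 (4.40) and Lamp5 (4.38). The list of thalamus, hypothalamus and brainstem had 8 of 21 higher and 2 lower, with a median of 0.13. Medians were also taken with the probe set of the highest mean in any 1 tissue, chosen after seeing the data. They were 4.54 for cerebellum, 3.44 for striatum, 1.87 for cortex and hippocampus, and 0.28 for thalamus, hypothalamus and brainstem. Of 6 pituitary genes only Prl was called, at 3.10 ± 0.99 (limma, adjusted p = 0.0251), and without brain array 1 it differed by 0.23 and was not called (adjusted p = 0.492).

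**Figure D4:**
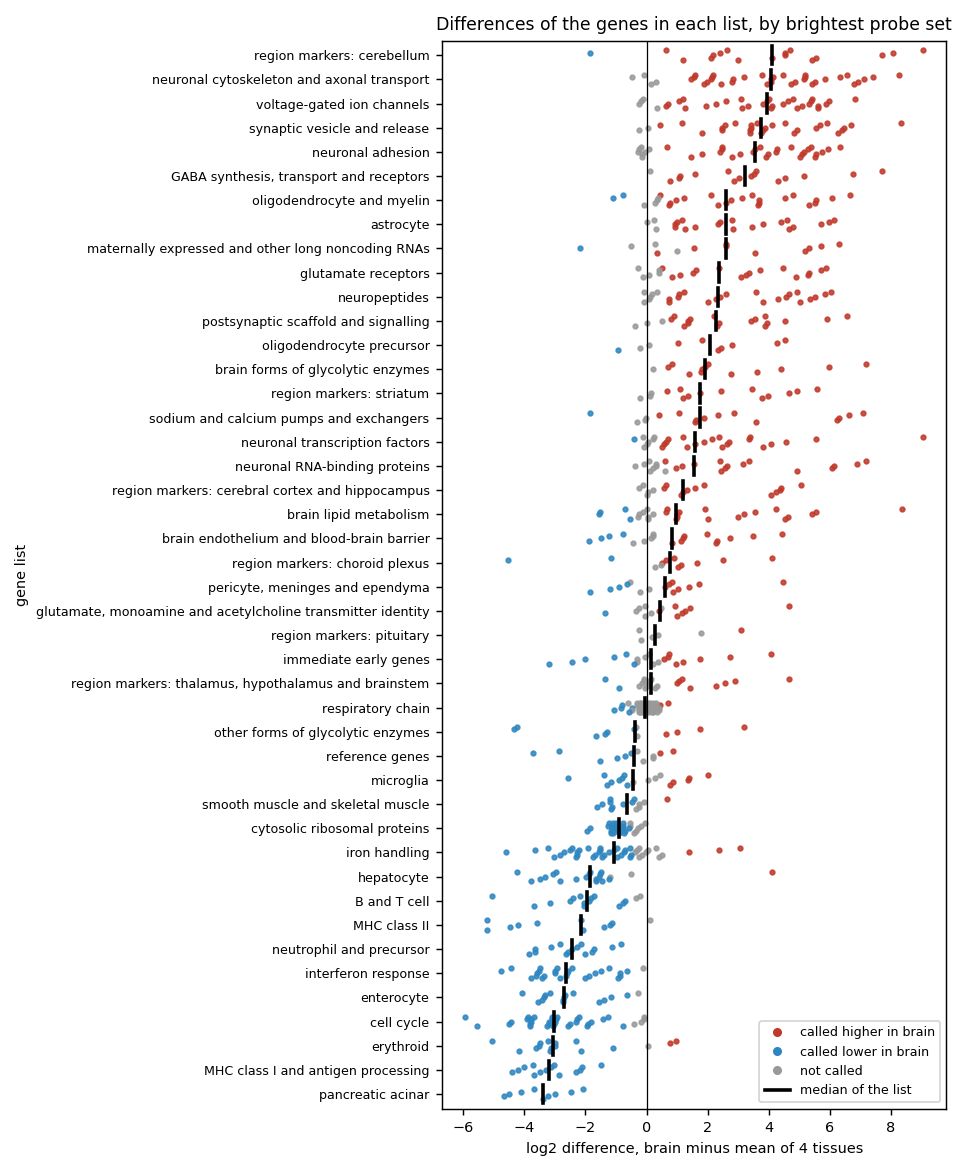
Log2 difference, brain minus the mean of 4 tissues (horizontal axis), of every measured gene in each list (vertical axis), 1 point per gene, red when called higher, blue when called lower and grey when not called. Black bars are medians, from 4.10 for cerebellar markers at the top to -3.38 for pancreatic acinar genes at the bottom.

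Among glia, astrocyte and oligodendrocyte genes rose and microglial genes were divided. Of 22 astrocyte genes 19 were higher and none lower, with a median of 2.60. Slc1a2, the main glutamate transporter of astrocytes, had 11.58 and 11.74 in brain, against 8.32 and 7.87 in liver and 4.22 to 4.92 in the remaining tissues, so that liver came second. Aqp4, the water channel of astrocyte endfeet, differed by 5.71 ± 0.19. Gfap, the classic astrocyte filament protein, named here after its values were seen, had 6.18 and 6.42 in brain and differed by 0.02, inside the range of the other tissues for its brightest probe set.

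Of 27 oligodendrocyte and myelin genes 21 were higher and 2 lower. The transcription factor Olig1 (6.64), the raft protein Mal (6.07), Ugt8a, which makes the myelin lipid galactosylceramide (5.55), and Cldn11, the tight junction protein of myelin (5.33), led the list. Gsn (-0.77) and Car2 (-1.11), which other tissues also use, were lower, but Car2 was not called with bone marrow left out of the mean (-0.33, limma, adjusted p = 0.291). Of 10 precursor genes 7 were higher, led by Ptprz1 (4.53).

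Of 17 microglial genes 5 were higher and 8 lower. Fcrls, a receptor found on microglia, had 7.03 and 7.21 in brain, against 4.68 to 5.48 elsewhere, and was the only gene of the list above each tissue. Tyrobp, an adaptor shared by myeloid cells, had 8.06 and 7.70 in brain, against 8.64 to 12.72, with a difference of -2.56. Brain was above the mean of 4 tissues for Cx3cr1 (1.36) and below it for the complement gene C1qc (-1.29). Without brain array 1 Cx3cr1 differed by 0.66 and was not called (limma, adjusted p = 0.127), nor was it on the IRP1 arrays (0.47, adjusted p = 0.0911).

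Vessel and border genes varied. Of 19 endothelial genes 10 were higher and 4 lower (median 0.82), of 15 genes of pericytes, meninges and ependyma 8 were higher and 4 lower (median 0.60), and of 12 choroid plexus genes 8 were higher and 2 lower (median 0.77). Slco1c1, the thyroid hormone transporter of brain endothelium, had 7.78 and 9.06 in brain and was near 4 elsewhere, a difference of 4.44. Slc2a1, the glucose transporter of the blood-brain barrier, differed by 2.31, whereas Abcg2, a drug efflux pump, was lower in brain than in each tissue (-1.89). Ptgds, the prostaglandin D synthase of meninges, rose by 4.46 ± 0.22. In the choroid plexus list Ttr, the thyroxine carrier, read 14.13 and 13.70 in brain and 14.4 as the liver mean, and the water channel Aqp1 was lower in brain than in each tissue, with 5.22 and 5.16 in brain, against 8.81 to 11.06.

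Enzymes of energy use differed between forms of the same activity. Eno2, the neuronal enolase, had 10.93 and 12.29 in brain, against 4.11 to 4.57 elsewhere (difference 7.18), while the muscle form Eno3 differed by -0.32 without a call. Aldoc differed by 5.97 and Aldoa by 1.75. Ldhb, the lactate dehydrogenase subunit of oxidative tissues, had 12.64 and 13.22 in brain, against 8.16 to 8.93, and rose by 4.38, whereas Ldha fell by 1.29.

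Sugar entry and storage followed the same division. The glucose transporter of neurons Slc2a3 rose by 2.77, though bone marrow exceeded brain, and Slc2a2, the transporter of liver and gut, read 3.90 and 3.98 in brain with a difference of -4.23. Brain glycogen phosphorylase Pygb rose by 1.77 and the liver form Pygl fell by 4.34. Hk1 rose by 1.80 while Hk2 (-1.36) and Hk3 (-1.65) were lower. In all, 12 of 13 brain forms and 4 of 12 other forms were higher than the mean. Above each tissue were 4 of the brain forms and 1 of the other forms.

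Of 16 pumps and exchangers 12 were higher, among them the bicarbonate transporter Slc4a10 (7.07), the plasma membrane calcium pump Atp2b2 (6.63) and Slc12a5, which keeps neuronal chloride low (6.25). Atp2a3, the calcium pump of blood cells, was lower (-1.85). In the list of lipid metabolism 17 of 28 were higher, including Gpm6b (5.40), Elovl4 (4.63) and Scd2 (4.52), and 4 were lower, including the cholesterol enzymes Sc5d (-1.54) and Lss (-0.70). Lss was not called with liver left out of the mean (-0.18, limma, adjusted p = 0.385), and the count of lower genes was then 2, against 7 with duodenum or bone marrow left out.

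Respiratory chain genes depended on the tissue compared. Against the mean of 4 tissues 2 of 49 were higher and 5 lower, with a median of -0.06, and quantile normalization raised the 2 to 12. Against bone marrow alone, 19 were higher and none lower, with a median of 0.42. Sdha, a subunit of complex II, had 12.29 and 12.44 in brain, against 13.36 and 13.32 in duodenum and 10.56 and 10.8 in bone marrow.

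Long noncoding RNAs of imprinted regions were among the high ones, and 9 of the 13 noncoding RNAs listed were higher in brain and 1 lower (median 2.59). Meg3, a maternally expressed RNA, had 13.48 and 13.32 in brain, against 7.35 to 9.11 elsewhere, and rose by 5.32 ± 0.15. Rian, from the same imprinted cluster, rose by 5.70 and Snhg14, a paternally expressed host of small nucleolar RNAs, by 6.28. Neat1, the scaffold of nuclear paraspeckles, was lower than each tissue, with 8.90 and 9.86 in brain, against 10.52 to 12.93. Peg3 and Ndn, both paternally expressed, exceeded bone marrow by 7.85 and 8.81.

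Genes of antigen presentation and of the interferon response were low in brain. All 14 genes of MHC class I and antigen processing were lower in brain, 12 of them than each tissue, with a median of -3.20. H2-K1, a classical class I heavy chain, had 8.19 and 8.86 in brain, against 12.03 to 13.67 elsewhere, and fell by 4.20 ± 0.20. B2m, the light chain, had 9.14 and 9.41, against 12.42 to 13.63. The proteasome subunit Psmb9 (-4.39) and the transactivator Nlrc5 (-4.01) had similar gaps.

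Of 11 class II genes 10 were lower, with H2-Aa at 6.37 and 6.34 in brain, against 9.46 to 13.63 elsewhere. H2-Ea was not called, with 0.10. C57BL6/J mice are known to lack an expressed H2-Ea. Of 27 interferon response genes 26 were lower, 21 of them than each tissue, with a median of -2.62, among them Rsad2 (-4.75), Irf8 (-4.45) and Ifitm2 (-3.78). Against bone marrow alone, 12 class I, 10 class II and 21 interferon genes were lower and none was higher.

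The genes with the largest deficit against the mean, among those called lower than each tissue, included products of plasma cells, other leukocytes and dividing cells. Igha, the immunoglobulin A heavy chain, had 5.48 and 5.20 in brain, against 14.99 and 14.51 in duodenum, 8.33 and 10.04 in liver, 13.46 and 13.65 in spleen, and 12.84 and 13.11 in bone marrow. Brain was lowest and liver came next, and brain fell by 7.28 ± 0.33 (limma, adjusted p = 1.08e-08). Plac8 (-7.06), the immunoglobulin joining chain Jchain (-6.61), Cytip (-6.09), the galectin Lgals3 (-5.94), Fabp4 (-5.85) and the lysozyme Lyz1 (-5.21) followed. Ptprc, the common leukocyte antigen, had 6.24 and 6.26 in brain, against 8.57 to 13.52.

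The marker lists of the other tissues were low in brain against the mean that includes those tissues. Of 21 hepatocyte genes 18 were lower (median -1.85), of 16 enterocyte genes 15 (-2.71), of 9 acinar genes 9 (-3.38), of 16 B and T cell genes 14 (-1.96), of 15 neutrophil genes 15 (-2.45), of 16 red cell genes 13 (-3.07) and of 14 muscle genes 9 (-0.62). The 1 hepatocyte gene that was higher was Ttr, also a gene of the choroid plexus.

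Mki67, a marker of proliferating cells, had 5.73 and 4.38 in brain, against 6.51 to 13.66 elsewhere, and fell by 5.94. Of 36 cell cycle genes 32 were lower and none higher, with a median of -3.02, and 8 were lower than each tissue, including Rrm2 (-5.56), Cdca8 (-4.49) and Ccnb2 (-3.91). Against bone marrow 34 were lower, with a median of -4.98. Liver was the next lowest tissue for Mki67, at 7.34 and 6.51.

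Of 20 immediate early genes 8 were higher in brain and 6 lower, the lower share being close to the 29.0% of all genes. Egr1, an activity-induced factor, had 12.17 and 11.11 in brain, against 7.45 to 9.94 elsewhere, and rose by 2.73. Nr4a2, which also specifies dopamine neurons, rose by 4.07 and Arc, a synaptic regulator, by 1.75. Zfp36, which destabilizes inflammatory messenger RNAs, had 5.62 and 5.89 in brain, against 8.23 to 9.70, and fell by 3.19, and Ier2 fell by 2.02.

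Genes often used as references were not level. B2m (-3.70) and Gusb (-2.86) were lower in brain than in each tissue, Actb differed by -0.95 and Ywhaz by 0.87, with the Ywhaz call lost when liver was left out of the mean (0.51, limma, adjusted p = 0.0548). Of 29 cytosolic ribosomal protein genes 22 were lower and none higher, with a median of -0.92 and Rplp0 at -1.95. Where a setting left out the brightest probe set of a gene, that gene was not retested and counted as not called. Without probe sets that can match several transcripts (x_at and s_at), 14 of the ribosomal genes were called lower, and with 1 mean per tissue none was.

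Iron handling genes, among which the targets of IRP1 fall, were mostly low in brain. Of 43 genes 30 were lower than the mean of 4 tissues and 3 higher, with a median of -1.05. Slc40a1, the iron exporter ferroportin, had 7.82 and 7.56 in brain, against 11.26 to 13.69 elsewhere, and fell by 4.59 ± 0.17. It was 1 of 4 of the 43 iron genes called lower than each tissue, against 5.92% of all genes. The others were Hfe (-2.29), the metal transporter Slc39a8 (-2.22) and Fech, the last enzyme of haem synthesis (-2.43).

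Several gaps came from 1 or 2 tissues. Cybrd1, the ferric reductase of gut, had 4.93 and 4.42 in brain, against 13.23 and 13.1 in duodenum and 4.11 to 6.20 in the other 3, and its difference to bone marrow was 0.49 without a call. Heph, which oxidizes exported iron, was likewise above brain in duodenum alone, and Hp, Hpx and Cp, plasma proteins of liver, had their highest values there. With duodenum left out of the mean, Heph was higher in brain by 0.86 (limma, adjusted p = 0.00356), and with liver left out, Hpx differed by 0.86 without a call. Tfrc, the transferrin receptor, had 10.46 and 10.84 in brain, against 10.89 and 10.44 in liver and 12.14 to 13.25 in the other 3, and overlapped with liver alone.

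The 3 genes above the mean were Sfxn5, a mitochondrial carrier of the sideroflexin family (3.06, and above each tissue), Cyb561, a transmembrane reductase (2.36, with duodenum higher), and Steap2, a metalloreductase (1.38). Fth1, the ferritin heavy chain, had 13.60 and 13.80 in brain and differed by -0.16 without a call. The 2 iron regulatory proteins themselves were lower than the mean, Aco1 at -1.55 and Ireb2 at -0.74, and neither was called against bone marrow. The Ireb2 call was lost without brain array 1 (limma, adjusted p = 0.112) and with duodenum left out of the mean, where it differed by -0.29 (adjusted p = 0.342). Against bone marrow 8 of the 43 iron genes were higher and 21 lower, with a median of -0.52. Over all 18193 genes 4242 were higher than bone marrow and 4040 lower.

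**Figure D5:**
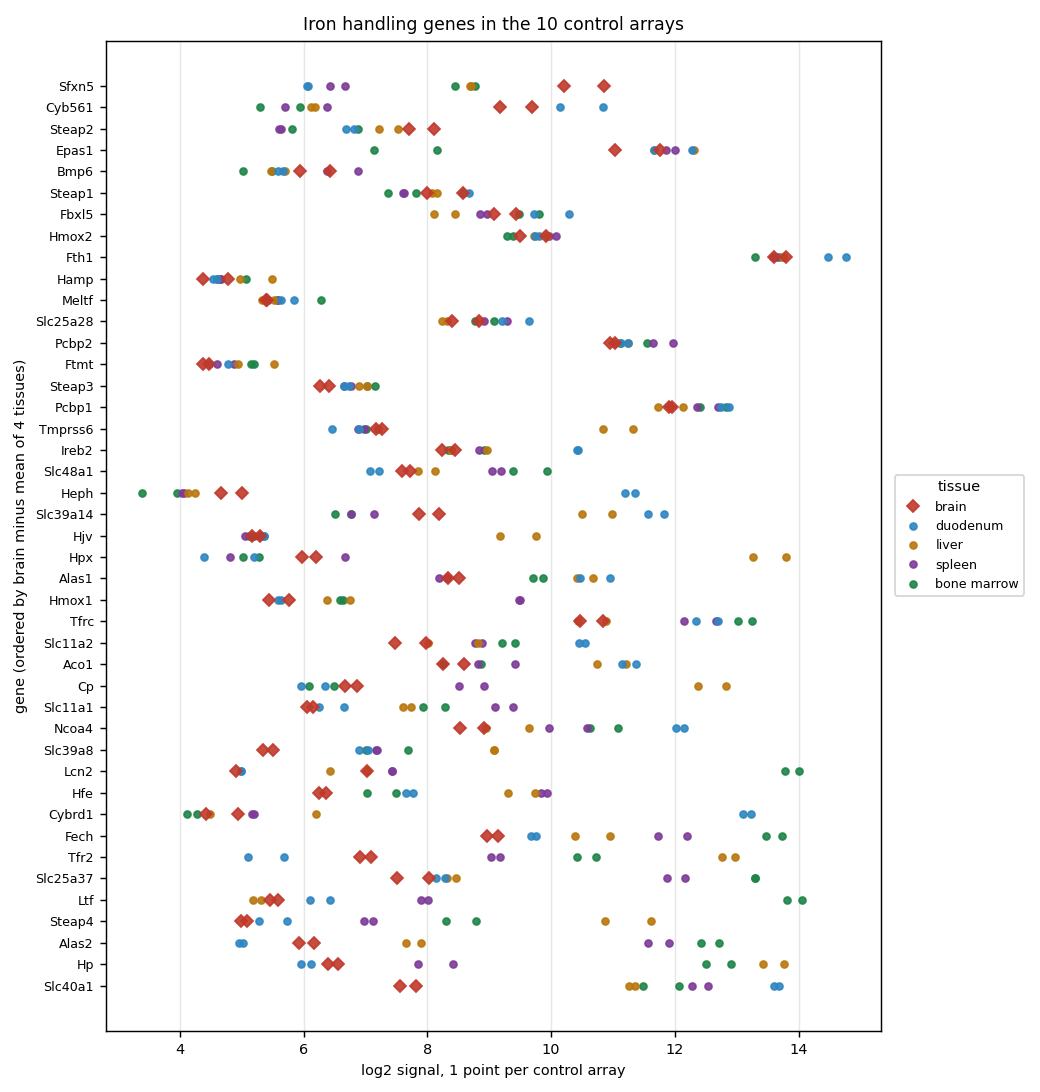
Log2 signal (horizontal axis) of 43 iron handling genes (vertical axis, ordered by brain minus the mean of 4 tissues), 1 point per control array, with diamonds for brain. Slc40a1 at the bottom has both brain points left of all others, and Sfxn5 at the top has both right of all others.

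For 436 of 9010 genes with 2 or more probe sets (4.84%), 1 probe set was called higher and another lower. Epb41l4b, a cytoskeletal linker, had 8.87 and 7.82 in brain, against 3.22 to 3.82 elsewhere, at one probe set (difference 4.86). At the other it had 5.81 and 5.60, against 12.4 and 12.26 in duodenum (difference -3.34). Kalrn, a guanine nucleotide exchange factor of spines with many isoforms, differed by 7.66 and -1.03 at its probe sets. For Anks1b, Scn8a and Car10 the lower probe set differed by only -0.51, -0.46 and -0.52. These 3 calls were lost without brain array 1 (limma, adjusted p = 0.232, 0.12 and 0.191) and with values below log2 5 set to 5, which left -0.03 for Scn8a.

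The promoters of brain-high genes were searched for RE1, the element bound by the repressor REST, which keeps many neuronal genes silent outside neurons. The element was spelled CAGCACC, then 2 bases of any kind, then GGACAG, on both strands, in the 250 bases before and 50 after the start of each gene in RefSeq (GRCm38.p6). Among 14452 tested genes with a promoter, 38 (0.263%) held it with at most 1 mismatch in 13 fixed letters. The count was 19 of 1606 genes higher in brain than in each tissue (1.18%) and 1 of 878 lower than each (0.114%). Of 546 genes higher than each tissue and at least 8-fold over the mean, 5 (0.916%) held it, none of them without a mismatch. With at most 2 mismatches the shares were 3.92% and 1.94%, against 2.53% of all. The median G+C content of these promoters was 61.7%, 58.9% and 58.7%, which was not matched, and a match does not show that REST binds there.

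The windows below are 5 of those 19 matches, chosen after their values were seen because the genes belong to the lists above or hold the full element. Other genes that also met this are not shown, among them Ttc9b with 0 mismatches and Slc17a6 with 1. The match is in capitals with 7 bases on each side, read 5′ to 3′ on the strand of the gene. Syn1 codes for synapsin, which tethers vesicles (brain minus mean 2.90). Rph3a codes for rabphilin, a vesicle effector of Rab3 (3.62). Sptbn4 codes for the spectrin of axon initial segments (1.56) and Hrh3 for a histamine receptor of nerve endings (1.02). Dner, a neuronal Notch ligand, read 11.89 and 11.92 in brain, against 3.24 to 6.12 elsewhere, at its most changed probe set. The Rph3a, Sptbn4 and Hrh3 windows hold the reverse complement of the element, and Sptbn4 and Hrh3 have 0 mismatches.
Syn1, chrX:20921127-20921155: tcggattCAGCACCGCGGTCAGagccttc
Rph3a, chr5:121009609-121009637: cctggtgCTGTCCGTGGTACTGactgcca
Dner, chr1:84696348-84696376: gccggttCAGCACCAAGGACAAgggcccc
Sptbn4, chr7:27396275-27396303: ccgggaaCTGTCCGTGGTGCTGgagccgc
Hrh3, chr2:180104569-180104597: cgcggcgCTGTCCGTGGTGCTGcccgcgc
Syn1 and Rph3a were each called higher than every tissue, as were the other 3, since the windows were drawn from that set.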

How the data were processed

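RNA from control immunoprecipitations of 5 mouse tissues was read on Affymetrix mouse genome arrays, 2 arrays per tissue. The deposited table holds log2 intensity values that the authors made, per the series design text, either with RMA or with MAS5 in the GCOS package followed by quantile normalization. Which of them gave these columns is not given in the sources used here, nor are tool versions. The values were used as deposited, without 64 Affymetrix control probe sets. Gene symbols came from the platform annotation, with 1 symbol for 34945 of 45037 probe sets, several for 932 and none for 9160. The number of arrays, 2 per tissue, limits the precision.

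Groups and reactions followed the sample titles. With limma 3.58.1 in R 4.3.3, 5 tissue groups were fitted to 10 arrays (5 residual and 5.88 prior degrees of freedom), with contrasts of brain minus the equally weighted mean of 4 tissues and minus each tissue, two-sided, Benjamini-Hochberg adjusted over all probe sets tested, and called at an adjusted p under 0.05. The fit was tested on simulated data. IRP1 arrays stayed out of the main fit. They entered a test of whether the brain difference changed with the reaction, alternative fits, and readings of single transcripts and lists. The 44 gene lists and their members, as well as the tests, were chosen with earlier results of these data known, and got counts and medians with no set test. Genes were named by rule: the 25 largest excesses and 15 largest deficits called against each tissue, the 10 largest deficits against the mean, the 5 largest excesses over bone marrow, the 5 genes with the most divergent probe sets, in each list up to 6 members with the largest differences and up to 4 opposite to the median, all iron handling genes, and enzyme or pump forms. Exceptions are named as such. Alternatives covered normalization, filters, floors, the model, the tissues averaged and each array left out. Figures were drawn with matplotlib 3.10.9.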

Additional observations from a re-analysis of the deposited data

Results flagged for a closer look

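Among 353 tests of named genes, the brain difference changed with the reaction for 2, in a limma test of the interaction over all 20 arrays. Avp, the vasopressin precursor of hypothalamic neurons, differed between brain and the mean of 4 tissues by 1.04 on the IRP1 arrays and by -0.08 on the control arrays, a change of 1.11 (1.115 before rounding, adjusted p = 0.025). Cldn11, the tight junction protein of myelin, differed by 4.22 on the IRP1 arrays and by 5.33 on the control arrays, a change of -1.11 (adjusted p = 0.025). Over all 45037 probe sets the interaction was called in 10, with 4 higher and 6 lower. Whether Avp and Cldn11 stay called under other settings of the interaction was not tested.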

How the results depend on the processing

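Most counts stayed within 1.5 times under the settings tried, and no probe set was called in opposite directions except when the mean left out duodenum (10), liver (11) or bone marrow (1). Keeping only probe sets with a mean of at least log2 6 left 4721 higher than the mean, 2040 higher than each and 5153 higher than bone marrow, since fewer were tested, and 223 list genes higher, against 402 without the filter. Setting values below log2 5 to 5 left 1269 lower than each tissue. With 1 mean per tissue 2129 were higher and 91 lower, against 8563 and 10589 in the main fit. In the lists 206 genes were then higher and 7 lower, against 402 and 270 otherwise. Brain was 1 value in that setting, so the error came from the spread between the other 4 tissues. Few lower calls stood against that spread, and lower calls fell more than higher calls. Without liver, 3456 were lower than each remaining tissue. The interaction with the reaction was called in 10 probe sets, in 17 after quantile normalization, in 2 above the mean filter and in 4 with tissue and replicate number as a block. The cause was not tested.

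Leaving out 1 array at a time gave 7346 to 8764 higher and 7972 to 10955 lower than the mean, 4147 to 4510 and 1493 to 2005 against each tissue, and 7216 to 8682 and 6824 to 8370 against bone marrow, with 383 to 405 list genes higher and 240 to 273 lower. The deviations of same-numbered arrays correlated at -0.288 to 0.268 over 10 pairs of tissues, with 3 over 0.1, so the numbers were not taken as pairing the tissues. A replicate block gave 8512 higher and 10389 lower, 4506 and 1872 against each tissue, and 8652 and 8304 against bone marrow. Taking for each gene the probe set with the highest mean in any 1 tissue, chosen after seeing the data, raised the channel genes called higher to 33 of 33 and the adhesion genes to 31 of 33.

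Of 4677 values of named genes, 4520 kept their call or its absence, 146 lost the call and 8 gained it. The other 3 changed sign with a call in the main fit or in the alternative. Changes of sign with no call in either were counted among the 4520. The 3 were Avp on the IRP1 arrays (1.04), Heph without duodenum (0.86) and Hpx without liver (0.86). Signals near the low end of the scale have no detection call, so folds against them depend on the background that the authors' normalization left.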

Other observations

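The IRP1 arrays of the same tissues gave 8280 probe sets higher and 10952 lower in brain, and 7503 and 8919 were called in the same direction on the control arrays. The respiratory chain list had 1 gene called higher and 14 lower on the IRP1 arrays, against 2 and 5 on the control arrays, and the difference between reactions was not tested for the list.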
